A study of Saccharomyces cerevisiae with 6 samples.

Results

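The effect of deleting *PBP1* in *ccr4Δ* cells was compared between log phase and stationary phase, across all genes on the array. The quantity examined was a difference of differences. For each gene, the log2 ratio of *ccr4Δ pbp1Δ* to *ccr4Δ* in log phase was subtracted from the same ratio in stationary phase. It is above 0 where the level in *ccr4Δ pbp1Δ* cells relative to *ccr4Δ* cells was higher in stationary phase than in log phase, and below 0 where it was lower. The genes were taken with no selection on their values. Of 6225 systematic names on the array, 5831 were measured on all 4 arrays that enter the calculation, meaning that both spots of at least 1 probe were well above background on each array. The remaining 394 genes were measured on 0 (91 genes), 1 (134), 2 (59) or 3 (110) of the 4 arrays and were left out.

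*Saccharomyces cerevisiae* cells were grown in YPD, a rich glucose medium, at 28°C. The series holds 6 arrays, 1 for each of wild-type, *ccr4Δ* and *ccr4Δ pbp1Δ* cells during log phase and in stationary phase. The 4 arrays of *ccr4Δ* and *ccr4Δ pbp1Δ* cells, all of which lack *CCR4*, were on 1 slide. The strain taken here as wild-type was 10B, which is listed as *MATα*, and the listed *ccr4Δ* strain was *MATa*. The sources used here do not describe the construction of the *ccr4Δ pbp1Δ* strain. No condition was repeated, so no difference had a replicate check, no p-value was computed, and the 2 spots of a probe show the error of the array only. Whether the growth phases of a strain came from 1 culture, and the hour or cell density at collection, are not given in the sources used here.

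Ccr4 is one of the deadenylases of the Ccr4-Not complex, which shortens the poly(A) tails of mRNAs in the cytoplasm, the step that precedes decapping and decay. Pbp1, the yeast relative of human ataxin-2, binds the poly(A)-binding protein Pab1 and is known as a negative regulator of poly(A) nuclease and as a partner of Pbp4, Lsm12 and Mkt1. When glucose runs out, yeast cells first respire the ethanol they have made and then enter stationary phase. Ribosome production and the cell cycle then slow down, and stress proteins, storage carbohydrates and respiration increase.

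The deleted genes were examined first. *PBP1* had a level of 0.12 in *ccr4Δ* cells during log phase and 0.07 in *ccr4Δ* cells in stationary phase, on a log2 scale where 0 is the 75th percentile of the array's signals. In *ccr4Δ pbp1Δ* cells it was not well above background, and it was at least 491-fold lower in log phase and at least 237-fold lower in stationary phase. *CCR4* was not well above background on any of the 4 arrays, against levels of −2.02 and −2.45 in wild-type cells in log and stationary phase. Between 94.5% and 98.4% of probes were well above background on these 4 arrays. On all 4, each of the 7 genes specific to *MATa* cells was higher than in wild-type cells of the same phase. The double mutant's mating type was not listed. The median log2 difference from wild-type cells was 6.95 and 6.94 in *ccr4Δ* and *ccr4Δ pbp1Δ* cells during log phase, and 4.84 and 3.17 in stationary phase. The α-factor receptor gene *STE2* had levels of 1.75 and 1.74 in *ccr4Δ* and *ccr4Δ pbp1Δ* cells during log phase, against −5.20 in wild-type cells.

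In log phase, more genes were lower than higher. At least 1.5-fold lower levels in *ccr4Δ pbp1Δ* than in *ccr4Δ* cells were seen for 407 genes (6.98% of those measured), and at least 1.5-fold higher levels for 81 genes (1.39%), while without scaling of the arrays the counts were 292 and 241. In RNA from a whole culture, fewer cells that express a gene and less of its mRNA in each cell cannot be told apart. In stationary phase 597 genes were higher (10.2%) and 632 genes were lower (10.8%), and without scaling 1346 were higher and 327 lower, so the balance of directions depends on the scaling. Of the 407 genes lower in log phase, 112 were also lower during stationary phase, 245 were within 1.5-fold and 50 were higher. Of the 81 genes higher in log phase, 31 were also higher during stationary phase and 4 were lower. Across genes, which are not independent replicates, the 2 effects had a Spearman's rho of 0.15 and a Pearson's r of 0.19.

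The difference of differences was at least 2-fold higher for 260 genes (4.46%) and at least 2-fold lower for 228 genes (3.91%). It was above 0 for 3191 genes (54.7%) and below 0 for 2640 genes. Higher genes were thus 53.3% of the 488 genes past 2-fold. They were 63.9% without scaling of the arrays, 45.9% with quantile normalization and 46.3% with the deposited processed table, so the larger direction depends on the scaling. The quartiles over all genes were −0.28 and 0.38 and the median was 0.06, and the SD over genes was 0.59, against an SD of 0.07 that the spread between spots gives for a gene. Both spots were past 2-fold in the same direction for 227 of the 260 higher genes and for 196 of the 228 lower genes. Past 4-fold, 31 genes were higher and 20 were lower.

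**Figure D1:**
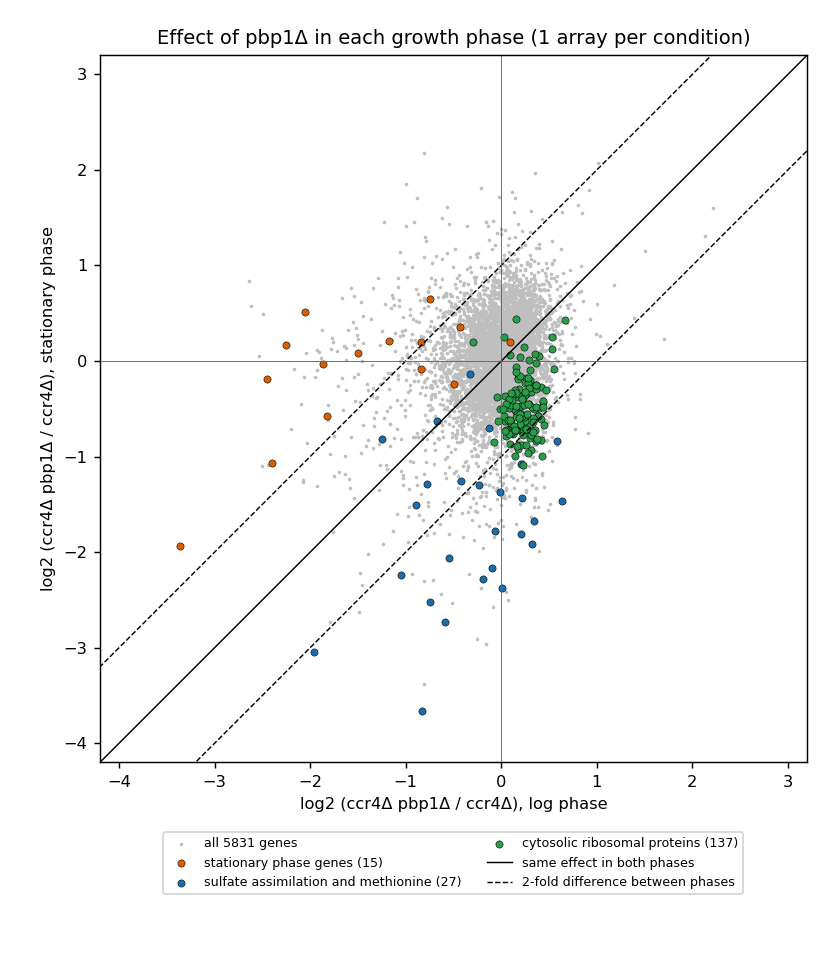
Log2 ratio of *ccr4Δ pbp1Δ* to *ccr4Δ* in log phase (x axis) against the same ratio in stationary phase (y axis) for 5831 genes, with 3 gene lists in colour, the line of equal effects (solid) and the 2-fold limits of the difference of differences (dashed). The stationary phase genes lie to the left, with a median of −1.5 on the x axis and 0.08 on the y axis, and the sulfate assimilation and methionine genes lie low, with medians of −0.19 and −1.5.

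With the main scaling, the higher and the lower genes were divided differently between the phases. These splits were not recomputed under other scaling. The 260 higher genes had a median effect of −0.77 in log phase and 0.63 during stationary phase. The effect was larger in size in log phase for 141 of the 260 and in stationary phase for 119. Of the 260, 106 genes were at least 1.5-fold lower in *ccr4Δ pbp1Δ* cells during log phase and within 1.5-fold in stationary phase. A further 86 genes were within 1.5-fold in log phase and higher during stationary phase, and 50 genes were lower in log phase and higher during stationary phase. The 228 lower genes had a median effect of 0.19 in log phase and −1.18 during stationary phase. For 201 of them the effect was within 1.5-fold in log phase and at least 1.5-fold lower in stationary phase, and the effect was larger in size in stationary phase for 218.

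*MOH1*, which codes for a conserved protein of unknown activity, had the highest value of all genes, 3.47, with its spots at 3.45 and 3.49. Its level was −2.89 in *ccr4Δ* and −5.53 in *ccr4Δ pbp1Δ* cells during log phase, and −0.14 and 0.69 in stationary phase. In wild-type cells it was −6.71 in log phase and −0.01 during stationary phase. The *ccr4Δ* array in log phase thus lay well above the other 2 strains. In stationary phase *ccr4Δ* and wild-type cells were close together, and *ccr4Δ pbp1Δ* cells were 1.78-fold above *ccr4Δ* cells. The neighbouring gene *RRT1* had a value of 2.99. *GPG1*, whose product has been proposed as a γ subunit of the Gpa2 G protein, had levels of −0.66 and −3.27 in *ccr4Δ* and *ccr4Δ pbp1Δ* cells during log phase and 2.30 and 2.87 in stationary phase, a difference of differences of 3.19.

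In log phase *ccr4Δ* cells also had the highest level for 3 stress and cell wall genes among the 15 highest. *HSP12*, for a small membrane-associated stress protein, was at 0.26 in *ccr4Δ* and −1.99 in *ccr4Δ pbp1Δ* cells during log phase, and at 1.61 and 1.78 in stationary phase. *HSP26*, a small heat shock chaperone gene, was at 1.29 and −1.16 in log phase and at 4.36 and 4.17 during stationary phase. For both genes the wild-type level in log phase was the lowest of the 3 strains, −3.53 for *HSP12* and −2.67 for *HSP26*. *PIR3*, which codes for a covalently bound cell wall protein, was at 1.1 and −1.44 in log phase and at 2.69 and 2.75 during stationary phase. Its neighbour *PIR1*, of the same family, did not follow it, with −0.69 against 2.59 for *PIR3*. The secreted glycoprotein gene *YGP1* was an exception in that *ccr4Δ* cells were not above wild-type cells during log phase (−0.56 against −0.30), while *ccr4Δ pbp1Δ* cells were at −2.61.

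In another set of the 15 highest genes the larger part of the difference lay in stationary phase. *BNA2*, for the first enzyme of NAD synthesis from tryptophan, was at −3.27 in *ccr4Δ* and −1.08 in *ccr4Δ pbp1Δ* cells in stationary phase, against −0.87 in wild-type cells. In log phase the same strains were at −4.74, −5.56 and −5.44. Its reading frame overlaps YJR079W, and which RNA the probe reads was not checked. *PYC1*, for pyruvate carboxylase, was at 1.94 in *ccr4Δ*, 3.40 in *ccr4Δ pbp1Δ* and 3.91 in wild-type cells in stationary phase. For *BNA2* and *PYC1* the stationary phase level of *ccr4Δ* cells was thus the lowest of the 3 strains, and that of *ccr4Δ pbp1Δ* cells was nearer to wild-type cells. *FRE7*, a member of the ferric reductase family, differed from them. It was at −0.70 in *ccr4Δ*, 1.15 in *ccr4Δ pbp1Δ* and −2.52 in wild-type cells, so that the double mutant was farthest from wild-type cells. The other genes among the 15 highest were *PEX18* (2.68), a peroxisomal import factor gene, YKL107W (2.58), *LEE1* (2.42), the glycerol transporter gene *STL1* (2.34) and YNL194C (2.32). Not all of them had the larger part in stationary phase. The effects in log and stationary phase were −1.57 and 0.77 for *STL1*, and −1.66 and 0.66 for YNL194C.

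**Figure D2:**
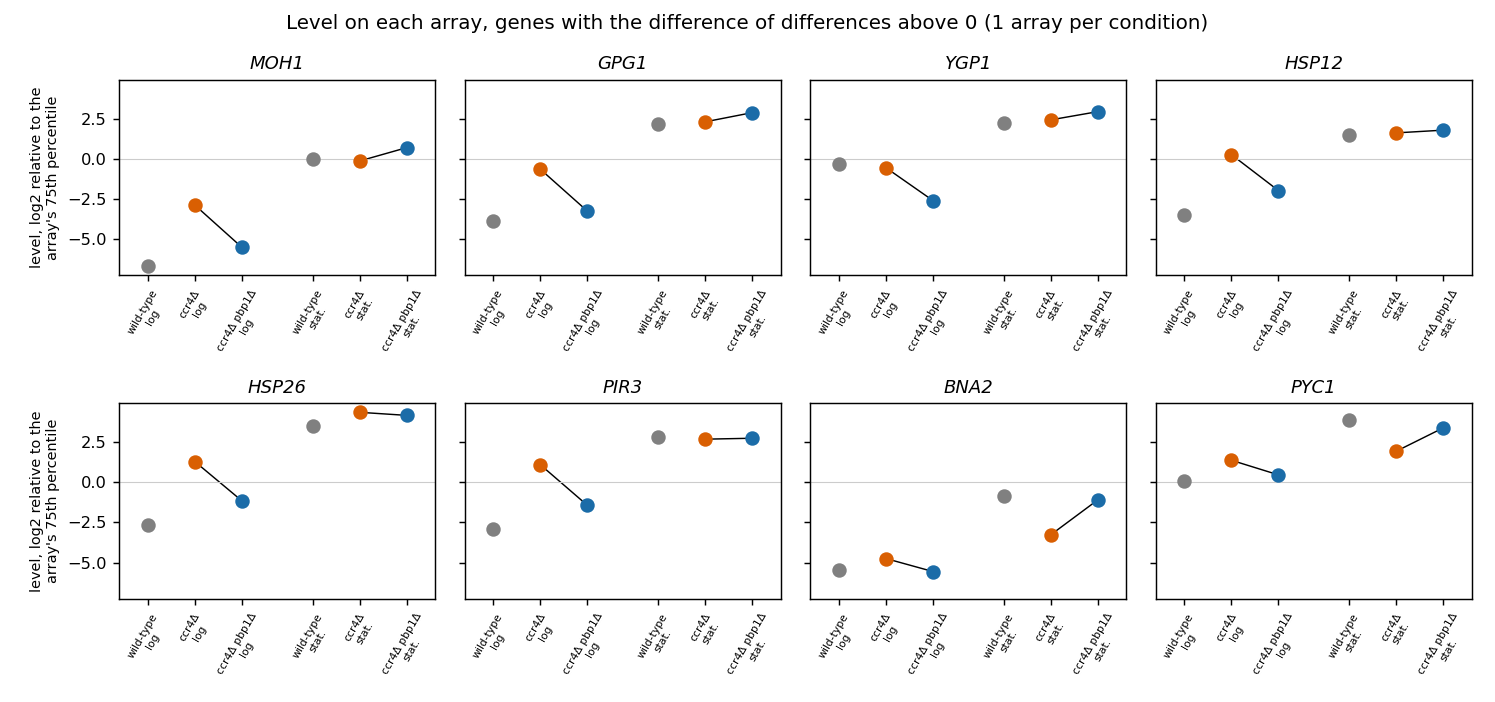
Level of 8 genes on each of the 6 arrays (log2 relative to the 75th percentile of the array), with wild-type in grey, *ccr4Δ* in orange and *ccr4Δ pbp1Δ* in blue, and a line joining the 2 arrays of each *pbp1Δ* effect. In log phase *MOH1*, *GPG1*, *HSP12*, *HSP26* and *PIR3* are highest in *ccr4Δ* cells, whereas in stationary phase *BNA2* and *PYC1* are lowest in *ccr4Δ* cells.

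The stationary phase genes as a list had a median difference of differences of 1.39, against 0.06 over all genes. Of the 15 members measured, 11 were at least 2-fold higher, against 4.46% of all genes, none was at least 2-fold lower, and all 15 were above 0, against 54.7%. Their median effect was −1.5 in log phase, where 12 were at least 1.5-fold lower in *ccr4Δ pbp1Δ* cells, against 6.98% of all genes, and 0.08 in stationary phase. After *YGP1*, *HSP12* and *HSP26* the next was *SPG4* (1.84), which is needed for survival at high temperature in stationary phase. The vitamin B6 gene pair *SNZ1* and *SNO1* was lower in *ccr4Δ pbp1Δ* cells in both phases, *SNO1* with effects of −3.36 in log phase and −1.94 during stationary phase. In the median, the list was 1.58 higher in *ccr4Δ* than in wild-type cells during log phase, and −0.03 in *ccr4Δ pbp1Δ* relative to wild-type cells. The wild-type array of log phase was on another slide than the mutant arrays. In stationary phase the medians relative to wild-type cells were −0.08 in *ccr4Δ* and −0.40 in *ccr4Δ pbp1Δ* cells.

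Of 26 heat shock proteins and chaperones, 6 were at least 2-fold higher (23.1%, against 4.46% of all genes) and none was lower, with a median of 0.59. *HSP12* and *HSP26* are not among the 26, since they were counted with the stationary phase genes. The 6 were *HSP33*, *HSP32*, *SSE2*, *SSA4*, *SSA1* and *HSP78*, between 1.14 and 1.80, of which *HSP32* and *HSP33* are near-identical copies and were not told apart. The Hsp90 genes *HSP82* (0.77) and *HSC82* (0.60) and the disaggregase gene *HSP104* (0.65) stayed within 2-fold. Genes of trehalose and glycogen metabolism had a median of 0.42 with 3 of 20 higher (15%, against 4.46% of all genes). These were *GAC1* (1.74), a glycogen synthase phosphatase subunit gene, *GLC3* (1.05), the branching enzyme gene, and *TSL1* (1.04), a subunit gene of trehalose synthase. The median effect on this list was negative in both phases, −0.60 in log phase and −0.28 during stationary phase. Among autophagy genes and vacuolar proteases, 5 of 42 were higher (11.9%, against 4.46%) and none was lower. They included *ATG8* (1.20), for the ubiquitin-like protein of the autophagosome membrane, and *ATG39* (1.5), a receptor gene for the autophagy of the nucleus.

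Genes of respiration had a smaller and more even difference. Of 38 nuclear genes of the respiratory chain and ATP synthase, 35 were above 0, against 54.7% of all genes, with a median of 0.68, and 6 were at least 2-fold higher (15.8%, against 4.46%). The highest were *NDI1* (1.32), for the internal NADH dehydrogenase, and *INH1* (1.24), for the inhibitor of ATP synthase. The median effect was −0.21 in log phase and 0.44 during stationary phase. The 15 tricarboxylic acid cycle genes had a median of 0.65. Of these, *SDH2* (1.43) and *SDH3* (1.01), for 2 of the subunits of succinate dehydrogenase, were at least 2-fold higher (13.3%, against 4.46%). Of 72 genes for mitochondrial ribosomal proteins, none was past 2-fold, against 4.46% of all genes higher and 3.91% lower. Above 0 were 64 of the 72, against 54.7% of all genes, and the median was 0.29. The 14 measured mitochondrially encoded genes did not share this direction, with 12 below 0 and a median of −0.25. Of all 5831 genes, 2640 were below 0. The 14 include reading frames that overlap *COX1* or *COB*, such as *AI3* and *BI2*. Some may therefore read the same RNA, which was not checked.

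Carbon and nitrogen genes were mixed. Of 22 genes of gluconeogenesis and the glyoxylate cycle, 5 were at least 2-fold higher (22.7%, against 4.46% of all genes) and 3 were lower (13.6%, against 3.91%). The higher ones included the mitochondrial succinate-fumarate carrier gene *SFC1* (2.10), *FBP1* (1.86) for fructose-1,6-bisphosphatase, and *ADR1* (1.71), a regulator of glucose-repressed genes. The 3 lower ones were *YAT2* (−1.86) and *CRC1* (−1.06), of carnitine metabolism, and *CIT3* (−1.57), a mitochondrial citrate and methylcitrate synthase gene. *CIT3* was at −1.07 in *ccr4Δ* and −3.36 in *ccr4Δ pbp1Δ* cells in stationary phase. The median effect on the 22 genes was negative in both phases, −0.74 in log phase and −0.50 during stationary phase. In log phase 16 were at least 1.5-fold lower, against 6.98% of all genes, and none was higher. In stationary phase 11 were lower and 4 were higher, against 10.8% and 10.2% of all genes. Among 15 measured hexose transporter and glucose sensor genes, *HXT5* (2.09), *HXT6* (1.5), *HXT17* (1.20) and *HXT7* (1.07) were higher (26.7%, against 4.46% of all genes). *HXT2* (−1.04) and *HXT1* (−1.03) were lower (13.3%, against 3.91%). *HXT6* and *HXT7* are nearly identical in sequence and neighbours, so these are not separate measurements. Over the 15 genes the median effect was −0.58 in log phase and −0.20 during stationary phase. Of 25 genes under nitrogen catabolite repression, which acts on genes for poor nitrogen sources, 7 were higher (28.0%, against 4.46% of all genes) and none was lower. The proline permease gene *PUT4* (2.21) and the glutamate dehydrogenase gene *GDH3* (2.04) led them, while *GAP1*, for the general amino acid permease, was at 0.38. Over the 25 genes the median effect was −0.48 in log phase and −0.09 during stationary phase.

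**Figure D3:**
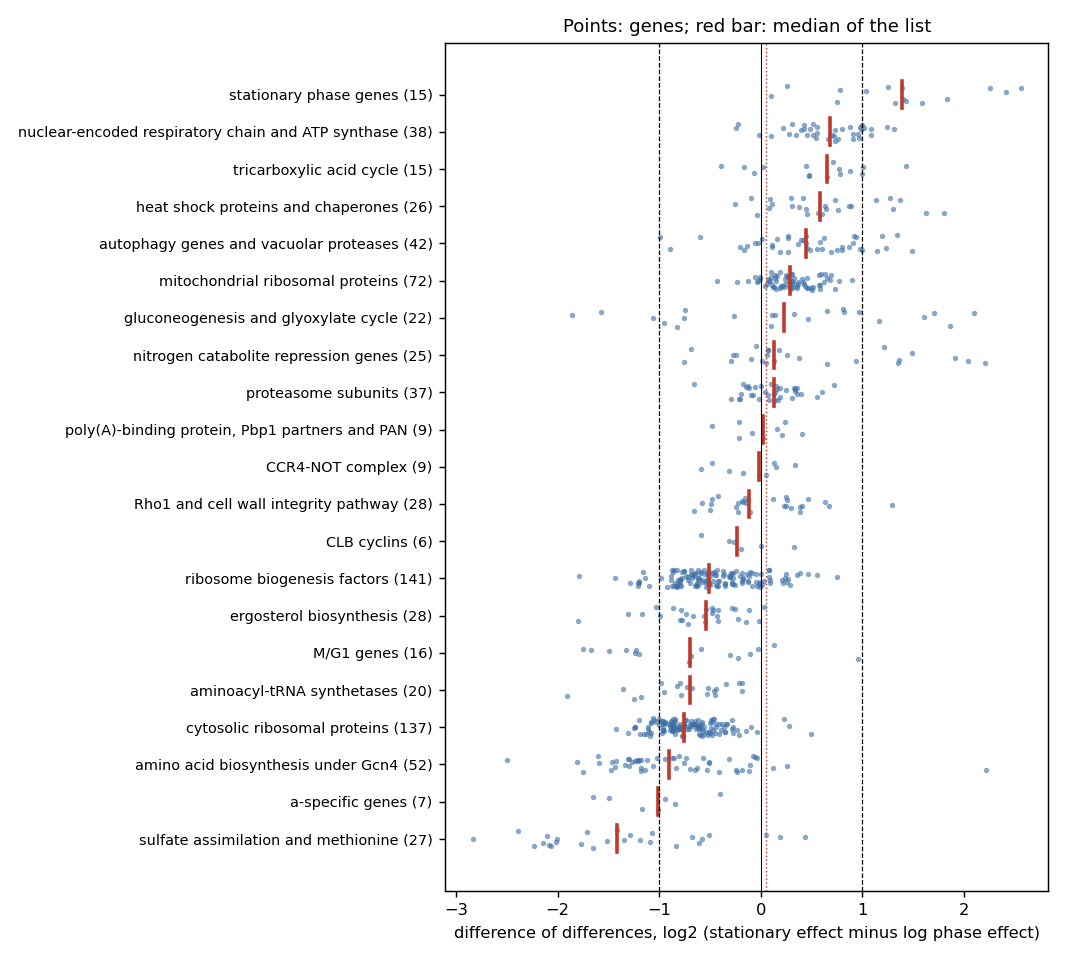
Difference of differences (x axis, log2) of the measured members of 21 gene lists, with 1 point per gene, the number of genes in parentheses and the median as a red bar. Dashed lines mark the 2-fold limits and the dotted red line the median of all genes, 0.06. The lists run from sulfate assimilation and methionine, with a median of −1.42, to stationary phase genes, with a median of 1.39.

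Of the 15 genes with the lowest values, many belong to sulfur metabolism. Yeast cells take up sulfate, reduce it to sulfide and join it to O-acetylhomoserine to make homocysteine, from which methionine, cysteine and S-adenosylmethionine are made. *MET17*, for the enzyme of the joining step, had the lowest value of all genes, −2.84, with its spots at −2.88 and −2.79. Its level was 1.74 in *ccr4Δ* and 0.92 in *ccr4Δ pbp1Δ* cells during log phase. In stationary phase it was 2.61 in *ccr4Δ* cells against −1.05 in *ccr4Δ pbp1Δ* and −1.19 in wild-type cells. Only the *ccr4Δ* array was high among the 3 stationary phase arrays. *MET17* overlaps YLR302C.

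Other steps of the pathway followed. The sulfate permease gene *SUL2* was at −1.88 in *ccr4Δ* and −4.61 in *ccr4Δ pbp1Δ* cells in stationary phase, against −4.86 and −5.45 in log phase. The adenylylsulfate kinase gene *MET14* went from −0.68 to −2.59 between these strains in stationary phase. The subunit genes of sulfite reductase, *MET5* and *MET10*, went from 0.40 to −1.76 and from −0.22 to −2.50. In log phase the effects on *MET5* and *MET10* were −0.10 and −0.19. The methionine permease gene *MUP1* was nearly equal in *ccr4Δ* and *ccr4Δ pbp1Δ* cells during log phase, at 2.55 and 2.56, and was at 2.27 and −0.11 in stationary phase. Genes for the use of S-adenosylmethionine and S-methylmethionine lie in pairs on the chromosome, and both pairs were low, *SAM3* and *SAM4* with −2.02 and −2.48, and *MMP1* and *MHT1* with −2.11 and −2.01. YMR321C, with −2.58, resembles *SAM4* in sequence, and hybridization between them was not checked.

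Of 27 genes of sulfate assimilation and methionine, 19 were at least 2-fold lower and none was higher, against 3.91% and 4.46% of all genes. The median was −1.42, with a median effect of −0.19 in log phase and −1.5 during stationary phase. In stationary phase 25 of the 27 were at least 1.5-fold lower in *ccr4Δ pbp1Δ* cells, against 10.8% of all genes. The 3 members above 0 were *MET28* (0.44) and *MET4* (0.19), which code for subunits of the transcriptional activator of the pathway, and *MET13* (0.05), for a methylenetetrahydrofolate reductase. In stationary phase 24 of the 27 were higher in *ccr4Δ* than in wild-type cells, with a median of 1.19. In *ccr4Δ pbp1Δ* cells 8 of the 27 were higher than in wild-type cells, with a median of −0.35. Of all 5831 genes, 2727 were higher than in wild-type cells in *ccr4Δ* and 2696 in *ccr4Δ pbp1Δ* cells.

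**Figure D4:**
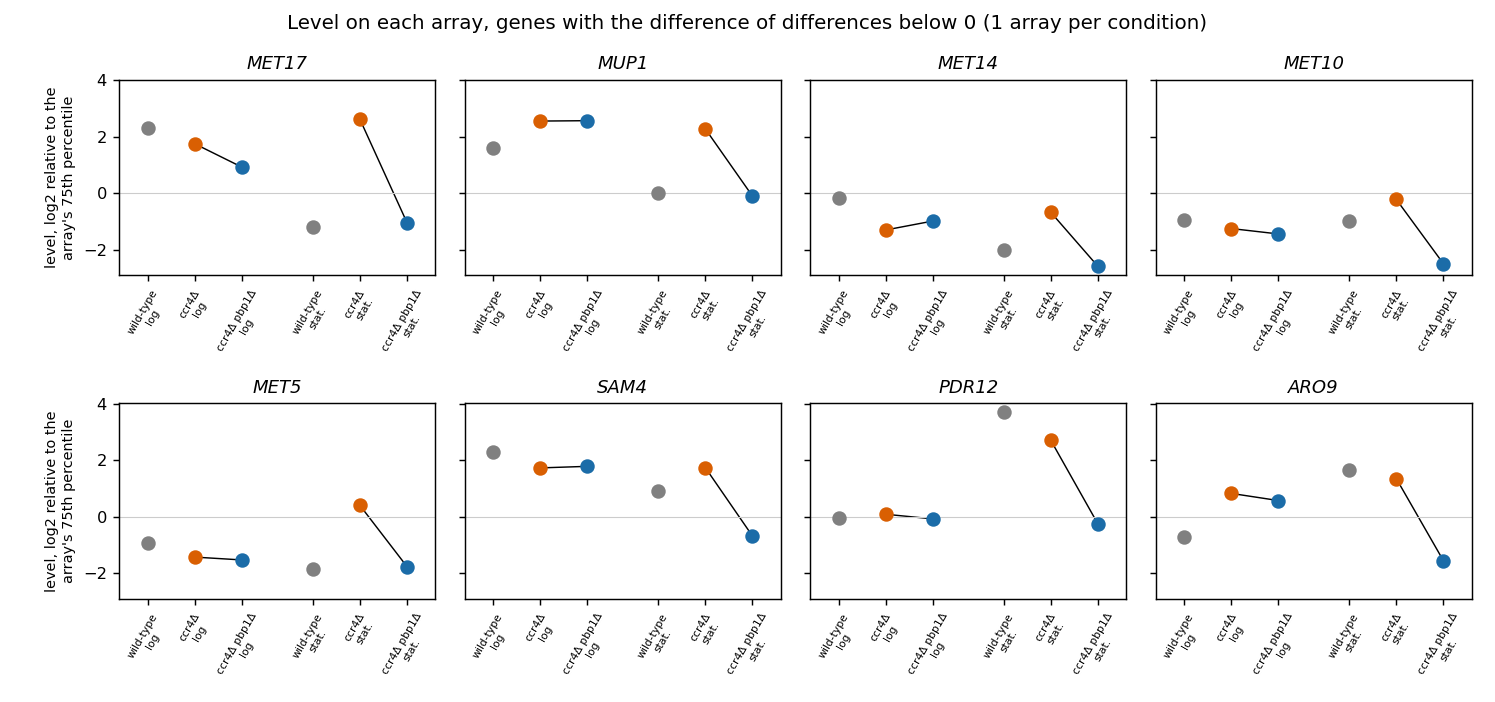
Level of 8 genes on each of the 6 arrays (log2 relative to the 75th percentile of the array), with wild-type in grey, *ccr4Δ* in orange and *ccr4Δ pbp1Δ* in blue, and a line joining the 2 arrays of each *pbp1Δ* effect. In stationary phase the *ccr4Δ* array is the highest for the sulfur genes *MET17*, *MUP1*, *MET14*, *MET10*, *MET5* and *SAM4*, and *PDR12* and *ARO9* are lowest in *ccr4Δ pbp1Δ* cells.

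Biosynthesis of other amino acids followed the sulfur genes to a lesser degree. Of 52 genes of amino acid synthesis under the activator Gcn4, 25 were at least 2-fold lower (48.1%, against 3.91% of all genes). The median was −0.90 and 49 of the 52 were below 0, against 2640 of all 5831 genes. *ARG8*, for the acetylornithine aminotransferase of arginine synthesis, was lowest at −2.49. Its level was −3.60 and −3.68 in *ccr4Δ* and *ccr4Δ pbp1Δ* cells during log phase and −0.63 and −3.21 in stationary phase. The list included *ARG3* (−1.81), *LYS20* (−1.75) and *TRP4* (−1.60), of arginine, lysine and tryptophan synthesis. *GCN4* itself was at 0.26. *SER3*, for a phosphoglycerate dehydrogenase of serine synthesis, was the 1 gene at least 2-fold higher, with 2.22. Its annotation overlaps the regulatory transcript *SRG1*, which is known to repress it, so the probe may read either RNA. *ARO9*, for an aromatic aminotransferase that breaks amino acids down, was at 1.35 in *ccr4Δ* and −1.56 in *ccr4Δ pbp1Δ* cells in stationary phase, a difference of differences of −2.66.

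*PDR12*, for a plasma membrane transporter that exports weak organic acids, had a value of −2.80. Its level was 0.09 and −0.08 in *ccr4Δ* and *ccr4Δ pbp1Δ* cells during log phase, and 2.71 and −0.25 in stationary phase, where wild-type cells were at 3.70. *PDR12* and *ARO9* thus differed from *MET17*, since in stationary phase *ccr4Δ pbp1Δ* cells were farther from wild-type cells than *ccr4Δ* cells were. The remaining genes among the 15 lowest were YMR173W-A (−2.58), whose reading frame overlaps the stress gene *DDR48* (−0.92), *MOR1* (−2.38), which had levels from −7.25 to −5.26 on the 4 arrays, and YLR297W (−2.16).

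Genes for making ribosomes were mostly below 0, with smaller values. Of 137 genes for cytosolic ribosomal proteins, 134 were below 0, against 2640 of all 5831 genes, with a median of −0.75. At least 2-fold lower values were seen for 20 of them (14.6%, against 3.91% of all genes), and none was higher. The effect had opposite signs in the 2 phases, with a median of 0.22 in log phase and −0.51 during stationary phase. *RPL21A* had the lowest value, −1.43, with levels of 1.66 and 2.09 in *ccr4Δ* and *ccr4Δ pbp1Δ* cells during log phase and −1.85 and −2.84 in stationary phase. Most of these genes exist as pairs of near-identical copies, which were not told apart here. Ribosome biogenesis factors had a median of −0.51, with 121 of 141 below 0 and 10 at least 2-fold lower (7.09%, against 3.91%), led by *RRP1* (−1.79), a gene for the maturation of the large subunit. The aminoacyl-tRNA synthetases had a median of −0.70 with all 20 below 0. Of these, 4 were at least 2-fold lower (20%, against 3.91% of all genes) and none was higher. *KRS1* (−1.91), for the lysyl-tRNA synthetase, was the lowest. RNA polymerase I and III genes had a median of −0.40, with 20 of 28 below 0, against 2640 of all 5831 genes. Of these 28, 3 were at least 2-fold lower (10.7%, against 3.91% of all genes). The 1 gene at least 2-fold higher was *RRN10* (1.28), which is 3.57%, against 4.46% of all genes. In contrast, translation initiation and elongation factors had a median of −0.06. None of the 40 was past 2-fold, against 4.46% of all genes higher and 3.91% lower. Ergosterol synthesis genes had a median of −0.54 with 27 of 28 below 0. Of these 28, 4 were at least 2-fold lower (14.3%, against 3.91% of all genes) and none was higher. The cytochrome P450 gene *ERG5* was at −1.80.

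Cyclin genes were mostly within 2-fold. Of the 6 B-type cyclin genes none was past 2-fold, against 4.46% of all genes higher and 3.91% lower. The values ran from −0.59 for *CLB6* to 0.33 for *CLB5*. *CLB6* was at −0.68 in *ccr4Δ* and −0.87 in *ccr4Δ pbp1Δ* cells during log phase, and at −5.0 and −5.78 in stationary phase. *CLB1* was at −0.31, *CLB2* at −0.27, *CLB4* at −0.19 and *CLB3* at 0.01. Among G1 cyclin genes, *CLN3* had a value of −1.04, while *CLN1* and *CLN2* were at 0.20 and 0.45. Of 16 M/G1 genes, 7 were at least 2-fold lower (43.8%, against 3.91% of all genes) and none was higher, with a median of −0.70. The 7 were *EGT2* (−1.75), *DSE2*, *SCW11*, *DSE4*, *PCL9*, *DSE1* and *CTS1* (−1.20). Several of them code for enzymes that daughter cells use to separate from their mothers, such as the chitinase Cts1. *EGT2* was at 2.64 and 2.59 in *ccr4Δ* and *ccr4Δ pbp1Δ* cells during log phase and at 1.02 and −0.78 in stationary phase, with wild-type cells at −1.17.

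Mating genes were split. The 7 genes specific to *MATa* cells were all below 0, with a median of −1.01, a median effect of −0.18 in log phase and −1.37 during stationary phase, and 4 were at least 2-fold lower (57.1%, against 3.91%). *STE2* was at −0.46 in *ccr4Δ* and −2.12 in *ccr4Δ pbp1Δ* cells in stationary phase, and the pheromone gene *MFA1* was at 1.63 and −0.67. The 3 measured genes specific to *MATα* cells were above 0, with a median of 1.38. *MF(ALPHA)1*, for the α-factor precursor, had levels of −6.49 and −7.30 in log phase and −6.81 and −6.17 during stationary phase in *ccr4Δ* and *ccr4Δ pbp1Δ* cells, against 3.07 and −2.24 in wild-type cells. These low levels lie close to the floor of the array. Of 18 pheromone response genes, 5 were at least 2-fold higher (27.8%, against 4.46%), namely *PRM4* (2.17), *PRM2*, *PRM3*, *FUS2* and *FIG1*. The other 13 were within 2-fold, among them *FUS1* (−0.65). Over the 18 genes the median effect was −0.53 in log phase and −0.29 during stationary phase.

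Genes of phosphate starvation (the PHO regulon) had similar median effects in both phases, 0.33 and 0.37, but their members differed. The level in *ccr4Δ pbp1Δ* cells exceeded that in *ccr4Δ* cells by 1.5-fold or more for 8 of 23 genes in log phase (1.39% of all genes) and for 7 in stationary phase (10.2% of all genes), where 4 others were at least 1.5-fold lower. *PHO84*, for the high-affinity phosphate transporter, was at 0.10 and 2.24 in these strains in log phase and at 0.93 and 2.24 in stationary phase, against 3.21 and 3.78 in wild-type cells. Its difference of differences was −0.83. The constitutive phosphatase gene *PHO3* had an effect of 0.31 in log phase against −1.63 in stationary phase, while *GIT1* and *PHM7* had effects of −0.39 and −0.48 in log phase against 0.65 and 0.59 in stationary phase.

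Genes around the deleted proteins had medians near 0. The Ccr4-Not complex had a median of −0.02, and Pab1, the Pbp1 partners and the Pan nuclease had a median of 0.02. Of the 9 genes measured in each list none was past 2-fold. Over all genes 4.46% were higher and 3.91% lower, so none among 9 is near that share. *MKT1* was at −0.22, *LSM12* at 0.24 and *PBP4* at 0.41. The sign of both medians turned under some other processing. Of 28 genes of Rho1 and the cell wall integrity pathway, 1 was at least 2-fold higher (3.57%, against 4.46% of all genes) and none was lower. This was *ROM1* (1.29), for an exchange factor of Rho1, and its relative *ROM2* was at 0.30. Of 35 genes of TORC1, Ras-PKA and Rim15 signalling none was past 2-fold, against the same shares of all genes. *ACT1*, often used as a reference gene, had a difference of differences of 0.25. *PGK1*, a glycolytic gene whose protein is used as a loading control, had a value of 1.27, with levels of 4.24 and 4.14 in log phase and 2.39 and 3.57 during stationary phase in *ccr4Δ* and *ccr4Δ pbp1Δ* cells.

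The shift between growth phases in wild-type cells uses arrays that do not enter the difference of differences. The wild-type arrays of the 2 phases were on different slides, so slide and growth phase cannot be told apart in this shift. Genes were grouped by the log2 ratio of stationary to log phase in wild-type cells. Dim probes were not filtered out on the wild-type arrays. Some genes, such as *PEX18* and YNL194C, were not well above background in wild-type cells during log phase, so their shift is imprecise. Of 238 genes more than 8-fold higher in stationary phase, 45.4% had a difference of differences at least 2-fold higher, and the median was 0.91. The share was 8.61% for 1127 genes between 2-fold and 8-fold higher, and 1.40% for 3287 genes within 2-fold. Of 153 genes at least 8-fold lower in stationary phase, 26.8% had a difference of differences at least 2-fold lower, and the median was −0.74, and of 1026 genes between 2-fold and 8-fold lower, 7.60% did. Across genes the 2 measures had a Spearman's rho of 0.44 and a Pearson's r of 0.49. The difference of differences is also the shift of *ccr4Δ pbp1Δ* cells minus that of *ccr4Δ* cells. For the 260 higher genes the median shift was 2.50 in wild-type, 1.35 in *ccr4Δ* and 2.84 in *ccr4Δ pbp1Δ* cells. For the 228 lower genes it was −1.10, −0.47 and −1.82. The order of the 2 mutant strains in these medians follows from the choice of the genes, and only the wild-type values are separate from it.

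**Figure D5:**
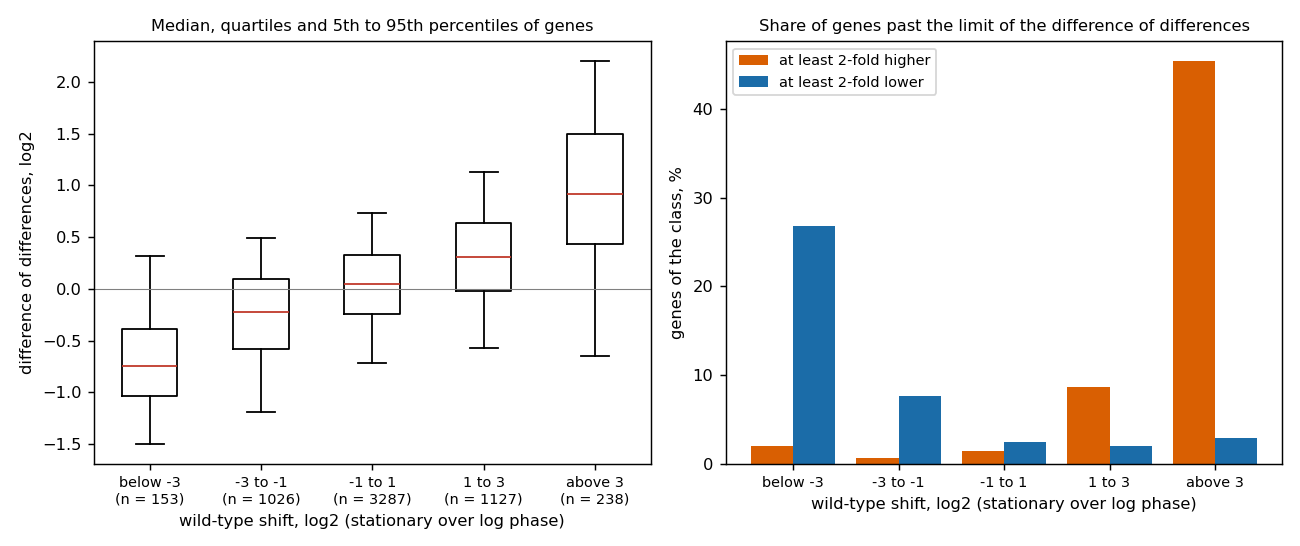
Difference of differences (log2, left) and percentage of genes past its 2-fold limits (right) by the wild-type shift between growth phases, whose 2 arrays were on different slides. Boxes show median and quartiles and whiskers the 5th and 95th percentiles of genes, and the medians run from −0.74 for genes at least 8-fold lower in stationary phase to 0.91 for genes more than 8-fold higher.

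The distance from wild-type cells was also compared. In log phase, 68.1% of the 5831 genes had a level in *ccr4Δ pbp1Δ* cells nearer to wild-type cells than the level in *ccr4Δ* cells. Among the 260 higher genes 73.1% did and among the 228 lower genes 66.2%, and these genes were chosen on the same levels, so the shares are a description. In stationary phase the shares were 47.9% of all genes, 53.8% of the higher genes and 42.1% of the lower genes. Wild-type cells of log phase were hybridised on another slide than the other 5 arrays, so slide and strain cannot be told apart in the log phase distances. The same amount of RNA was labelled for every array and levels are relative to each array, so a difference in total mRNA per cell would not be seen. Stress, ribosome and cell separation genes move with the stage of a culture, and whether the *ccr4Δ* and *ccr4Δ pbp1Δ* cultures were at the same stage when collected was not tested.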

How the data were processed

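Total RNA (100 ng, Cy3) of each condition was hybridised to a 1-colour Agilent yeast array, and the authors deposited the spot intensity from Feature Extraction 11.0.1.1, background-treated by that software, with its flags. They also deposited a table of processed intensities whose sorted values are the same in every array, as after quantile normalization. The array design is annotated on sacCer2.

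Neither control spots nor outlier spots were used. The log2 processed signal minus the 75th percentile of the array was averaged over the 2 spots of a probe and over the probes of a gene (6196 genes had 1 probe and 29 had more). The SD between spots was 0.08 to 0.09 on each array, and the number of arrays, 1 per condition, limits the precision. Symbols came from the RefSeq table of GCF_000146045.2, which held 5720 of the 6225 systematic names and was used only for names, overlaps and neighbours. Probe sequences were not analysed here. "At least" folds compare the bright level with the higher of the dim level and the lowest probe well above background on the dim array.

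Limits were 2-fold for the difference of differences and 1.5-fold for each effect. The genes named were *PBP1*, *CCR4*, every *CLB* and *CLN* gene, *PGK1*, *ACT1*, the 15 highest and 15 lowest values with both spots past 2-fold, and up to 4 members of each of 44 gene lists with the largest size. Other members, neighbours and relatives were chosen for naming with their values in view. The comparison and the lists were chosen with earlier results of these data known. Alternatives were scaling left out or on the median, quantile normalization, normexp (limma 3.58.1 in R 4.3.3, offset 50, on the median signal since the mean signal was not in the files used), the deposited table, the brightest probe, single spots, no filter on dim probes, other limits, the median of all genes subtracted and *ACT1* as reference. Correlations under these settings were added after the data were seen. Other steps used Python 3.11.15, numpy 2.4.6, pandas 2.3.3 and scipy 1.17.1, and the code was tested on simulated data.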

Additional observations from a re-analysis of the deposited data

Results flagged for a closer look

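In 23 named genes the effect of *pbp1Δ* was at least 1.5-fold in both growth phases but in opposite directions. With 1 array per condition the difference between the phases was not tested in any of them. In 22 of the 23, *ccr4Δ pbp1Δ* cells were lower than *ccr4Δ* cells during log phase and higher in stationary phase. By the difference of differences these were *MOH1* (3.47), *BNA2* (2.99), *FRE7* (2.85), *PEX18* (2.68), YKL107W (2.58), *LEE1* (2.42), *PYC1* (2.37), *STL1* (2.34), YNL194C (2.32), *SER3* (2.22), *PUT4* (2.21), *GPX1* (2.11), *SFC1* (2.10), *HXT5* (2.09), *FBP1* (1.86), *ADR1* (1.71), *ATG39* (1.5), *TIS11* (1.49), *PRX1* (1.48), *FUS2* (1.47), *MF(ALPHA)1* (1.45) and *SDH2* (1.43). *GPX1* and *PRX1* code for peroxidases, and *TIS11* for a protein that destabilises mRNAs when iron is scarce. *MMP1*, the S-methylmethionine permease gene, went the other way (−2.11), with an effect of 0.64 in log phase and −1.47 during stationary phase. The median of the 3 measured genes specific to *MATα* cells (1.38) also had opposite effects in the 2 phases, −0.81 and 0.64. Both of these medians are the values of *MF(ALPHA)1*, whose levels in the mutants lie close to the floor of the array. *STE3* had effects of −0.004 and 1.38, and *SAG1* was lower in both phases, with −1.75 and −0.78. The opposite signs of the list thus rest on 1 gene, and this too was not tested.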

How the results depend on the processing

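No paired analysis was possible because each condition has 1 array, and no array was left out for the same reason. No sign turned among the 122 named genes past 2-fold, nor, under the scaling, background, probe, spot, filter and median settings, among the medians of the 44 lists except translation factors, the Ccr4-Not complex and Pab1 with the Pbp1 partners, whose medians lie near 0 and turned sign in 10 cases in all. List medians with *ACT1* as reference, which lowers every value by 0.25, were not computed, and lists with a median between 0 and 0.25 would turn. Of 976 values of those named genes under alternatives other than *ACT1* as reference, 930 were still past 2-fold, and with *ACT1* as reference 106 of 122 were.

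Genes past the limit of the difference of differences numbered 819 higher and 689 lower at 1.5-fold, and 31 and 20 at 4-fold. Without scaling, 260 of the 260 higher and 184 of the 228 lower genes were shared, and with quantile normalization 202 and 210. In log phase the higher genes numbered 241 without scaling (against 292 lower), 136 with median scaling, 137 without the filter on dim probes and 11 at 2-fold, and the lower genes 156 at 2-fold. In stationary phase the higher genes numbered 1346 without scaling and 92 at 2-fold, and the lower genes 327 and 215. Higher genes were 45.9% of those past 2-fold with quantile normalization.

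Some list medians moved by more than the spread between spots. Without scaling they were 1.48 for stationary phase genes, 0.67 for heat shock proteins and chaperones, 0.74 for the tricarboxylic acid cycle, 0.77 for the nuclear-encoded respiratory chain and ATP synthase, 0.37 for mitochondrial ribosomal proteins, −0.67 for cytosolic ribosomal proteins, −0.42 for ribosome biogenesis factors, −0.61 for aminoacyl-tRNA synthetases, −0.82 for amino acid biosynthesis under Gcn4, −1.33 for sulfate assimilation and methionine, −0.61 for M/G1 genes and −0.93 for a-specific genes. With quantile normalization they were 1.09 for stationary phase genes, 0.47 for the tricarboxylic acid cycle, 0.55 for the respiratory chain, −0.67 for cytosolic ribosomal proteins, −1.08 for amino acid biosynthesis, −1.53 for sulfate assimilation, −0.84 for M/G1 genes and −1.10 for a-specific genes. With normexp they were 1.29, −1.51 and −1.09 for stationary phase, sulfate assimilation and a-specific genes. With the deposited table they were 1.06 for stationary phase genes, 0.51 for heat shock proteins, 0.44 for the tricarboxylic acid cycle, 0.56 for the respiratory chain, −1.09 for amino acid biosynthesis, −1.56 for sulfate assimilation and −0.87 for M/G1 genes. On the first spot only, the respiratory chain was at 0.60. Spearman's rho between the effects in the 2 phases was 0.20 with quantile normalization and with the deposited table, and that with the wild-type shift was 0.39 with both. These correlation settings were chosen after seeing the data. Subtracting a value common to all genes of an array shifts every gene alike, and otherwise the cause of these moves was not tested. Genes dim on any of the 4 arrays have no value, which limits the account of genes low in log phase.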
